A study of Rattus norvegicus with 10 samples.

Results

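The genes described here mark T lymphocytes and natural killer (NK) cells, and their signals were read in rat mammary tumours. Of 31 genes listed by name, 28 had a probe set annotated to that gene alone on the Affymetrix Rat Genome 230 2.0 array, out of 14217 genes so represented. Cd27, Foxp3 and Tbx21 were not analysed here. Where several probe sets read 1 gene, the one brightest on average over all arrays was taken, and no filter on signal was used. Female Sprague-Dawley rats, an outbred strain, had received 100 mg/kg of the carcinogen 7,12-dimethylbenz(a)anthracene (DMBA) by mouth, and tumours were chosen by histological grade. The 5 tumours were 31D3, 32D1, 37I1, 50I1 and 52I4, and each gave a total tumour taken at sacrifice at an age of 19 weeks and a needle biopsy taken at 12 weeks, at a tumour volume of 2 cm3. A biopsy measured 0.7 cm by 2.5 mm, so it sampled a small piece of a tumour, and the labels give no further treatment for either group. The study's design text calls the later sample a needle core as well, where its own labels call it the total tumour. Whether each tumour grew in a rat of its own is not stated, so errors below reflect the spread between these tumours, which may in part be technical. Each SE is that of limma, which draws a gene's variance toward that of all probe sets. For these members it is smaller than the gene's own spread over pairs would give.

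A T cell recognises antigen through its receptor, whose signal is carried into the cell by the CD3 chains and the kinases Lck and Zap70. CD4 and CD8 are coreceptors that steer a T cell to antigen on class II or class I major histocompatibility molecules. Cytotoxic T cells and NK cells kill by releasing perforin, which opens the target membrane, and granzymes, which are serine proteases that trigger death inside the target. Carcinogen-induced mammary tumours contain such lymphocytes among stroma and macrophages, and a bulk array reads all cells of a sample together, so fewer cells of a type and less RNA per cell cannot be told apart.

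Signals on all arrays lay between 2.34 and 14.26 on the log2 scale, with array medians from 5.99 to 6.12. Signals under 5.15, the level below which the dimmest 40% of probe sets lie, were taken as near background. The means over 10 arrays of Cd28 (4.57), Gzmk (4.95) and Klrd1 (5.01) were under it, and Cd96 and Prf1, at 5.17 each, were the members just over it, which leaves 25 members at or above. The T cell label was borne out by Cd3d, Cd3e, Cd3g and Lck, whose means lay between 7.38 and 8.74. Among NK markers, Nkg7 had a mean of 6.44 and the activating receptor gene Klrk1 one of 7.20, while Ncr1, a receptor gene of NK cells, had a mean of 3.55 and was near background on every array. An NK origin of the cytotoxic signal therefore cannot be told apart from a T cell origin here. The sample titles end in codes whose numbers form a run of their own in each group. The titles do not say what these numbers count. Any order of handling behind them cannot be told apart from the moment of sampling.

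The T and NK cell genes varied widely between arrays and were high or low together, higher in the total tumour of some tumours and lower in that of others. Their mean log2 signal in the total tumours was 8.60 in 31D3, 6.45 in 32D1, 6.67 in 37I1, 5.91 in 50I1 and 6.03 in 52I4. In the biopsies it was 6.92 in 31D3, 6.63 in 32D1, 5.17 in 37I1, 7.10 in 50I1 and 6.72 in 52I4. Total tumour 31D3 was thus far above the other total tumours, and biopsy 37I1 far below the other biopsies. The mean was 6.73 ± 1.09 in the total tumours and 6.51 ± 0.77 in the biopsies (SD, n = 5 each), and the groups overlapped. The total minus biopsy difference averaged 0.22 with an SD of 1.30 over 5 pairs. It was -0.14 without 31D3 and -0.10 without 37I1, and 0.57 without 50I1.

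**Figure D1:**
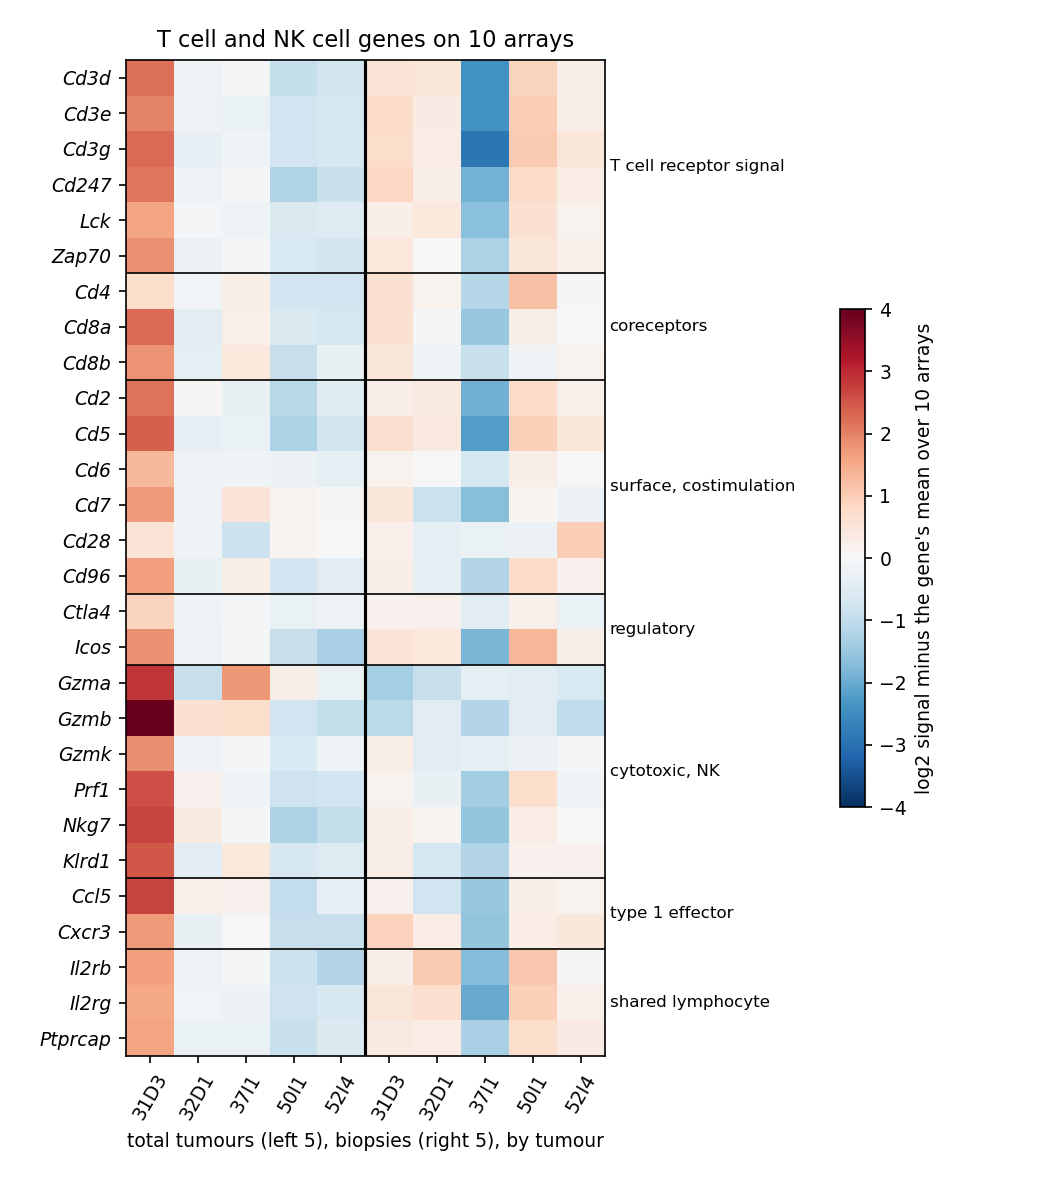
Log2 signal of each of 28 T cell and NK cell genes (rows, grouped by role) minus that gene's mean over 10 arrays, with the 5 total tumours in the left columns and the 5 biopsies in the right columns. Total tumour 31D3 is the highest total tumour for 28 of 28 genes, and biopsy 37I1 is the lowest biopsy for 25 of 28.

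A member's signal spanned a median of 3.60 log2 units over the 10 arrays, where the median over all genes was 0.70, and 0.77 over the 10793 genes at or above 5.15. The range exceeded 2 log2 units for 25 of 28 members, against 9.88% of all genes. Exceptions were Ctla4, Cd28 and Cd6, with ranges of 1.34, 1.84 and 1.98. Total tumour 31D3 was the highest of the total tumours for 28 of 28 members, against 20.1% of all genes. It was the highest of all 10 arrays for 26 of 28, against 12.3%, the exceptions being Cd4 and Cd28. Biopsy 37I1 was the lowest biopsy for 25 of 28 members, against 20% of all genes, and biopsy 50I1 the highest for 18, against 14.6%. At the later moment, tumour 50I1 was instead the lowest total tumour for 19 of 28, against 16.2%.

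Taken pair by pair, a change of more than 1 log2 unit (2-fold) was common among the members. In 31D3, 28 of 28 members were higher at all in the total tumour, where the median change over all genes was 0.03. Of these, 24 of 28 were higher by more than 1 log2 unit, against 5.2% of all genes. In 37I1 it was also 24 of 28, against 5.3% of all genes. Tumour 50I1 went the other way, with 18 of 28 members lower by more than 1 log2 unit, against 4.16% of all genes. In 52I4, 6 members were lower by this much, against 2.22%. Tumour 32D1 differed little, with 1 member higher (Gzmb) and 1 lower (Il2rb) by more than 1 log2 unit, against 1.25% and 1.39% of all genes. Against the direction of each tumour there were 0 members past 1 log2 unit, where 2.76% of all genes were lower by this much in 31D3 and 1.01% in 37I1, and 1.27% were higher in 50I1 and 2.61% in 52I4. Of the 25 members at or above 5.15, 22 were higher by this much in 31D3, against 5.9% of genes at this level, and 23 in 37I1, against 6.51%. On the lower side there were 18 of 25 in 50I1, against 5.08%, and 6 of 25 in 52I4, against 2.68%. The opposite directions again held 0 of 25, where such genes made up 3.41% in 31D3, 1.11% in 37I1, 1.25% in 50I1 and 3.01% in 52I4. In 32D1 it was 1 member on either side, against 1.44% higher and 1.67% lower. Each pair is 1 sample against 1, so these counts compare 2 arrays and carry no test.

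Tested over 5 pairs in limma with the tumour as a block, 0 of 28 members passed an adjusted p under 0.05, as did 0% of 31042 probe sets, and the lowest adjusted p of a member was 0.654 in limma. At an unadjusted p under 0.05 there were 2 members, Cd7 and Gzma, or 7.14% of members, against 6.86% of all probe sets. Both were higher, against 2.6% of genes higher, and 0 members were lower, against 2.58% of genes. The median difference was 0.12 over the members and 0.03 over all genes, and the mean was higher in the total tumours for 19 of 28 members, against 57% of all genes. In 17 members the total tumour was higher in 2 of 5 pairs, which were 31D3 and 37I1 for all 17. The share of members at this threshold was thus near that of the whole array. Standard errors of the members' differences lay between 0.183 and 0.818, and the pairs differed in direction.

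The genes of the T cell receptor complex were high or low together, tumour by tumour. Cd3e, an invariant chain of the receptor, had log2 signals of 10.23, 8.07, 8.01, 7.46 and 7.59 in the total tumours of 31D3, 32D1, 37I1, 50I1 and 52I4, against 9.01, 8.59, 5.85, 9.26 and 8.53 in the biopsies of the same tumours, in that order. The groups overlapped, with the highest signal in total tumour 31D3 and the lowest in biopsy 37I1. The difference was 0.02 (SE 0.567), and by pair it was 1.22, -0.52, 2.16, -1.80 and -0.95. Cd3g, a further CD3 chain, differed by 1.56, -0.61, 2.72, -1.78 and -1.12 in the same order of tumours, and Cd3d by 1.69 in 31D3, 2.37 in 37I1 and -1.86 in 50I1. The 3 chains therefore gave the same order of pairs, with 37I1 highest, then 31D3, 32D1, 52I4 and 50I1.

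Cd247, the zeta chain that carries most of the receptor's signalling motifs, had log2 signals of 8.80, 6.45, 6.60, 5.46 and 5.77 in the total tumours, against 7.49, 6.92, 4.76, 7.38 and 6.96 in the biopsies. Its difference was -0.08 (SE 0.563). The kinase gene Lck, whose product phosphorylates the CD3 chains, differed by 0.11 (SE 0.431), and Zap70, the kinase that binds them once phosphorylated, by 0.06 (SE 0.413). All 6 genes of this group were higher in 31D3 and in 37I1, and all 6 were lower in 32D1, 50I1 and 52I4.

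Of the coreceptor genes, Cd8a and Cd8b were far higher in the total tumour of 31D3 than in its biopsy, and Cd4 was not. Cd8a, the alpha chain of CD8, which rat NK cells also carry, had log2 signals of 8.35, 5.63, 6.26, 5.49 and 5.37 in the total tumours, against 6.69, 5.99, 4.54, 6.29 and 6.10 in the biopsies. Cd8b, the beta chain, is more particular to T cells, and its signal was 7.26 in total tumour 31D3, against 5.90 in the biopsy of that tumour. The other total tumours had Cd8b signals between 4.53 and 5.88 and the other biopsies between 4.58 and 5.59. Cd4, which in rats is also made by macrophages, had log2 signals of 7.85, 7.03, 7.36, 6.38 and 6.38 in the total tumours, against 7.74, 7.29, 5.99, 8.31 and 7.06 in the biopsies. In 31D3 the change of Cd4 was thus 0.11, where that of Cd8a was 1.66. The mean differences were 0.30 (SE 0.449) for Cd8a, 0.25 (SE 0.357) for Cd8b and -0.28 (SE 0.422) for Cd4, and the difference between the genes was not tested.

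Cd7 comes first among the other surface molecules. Cd7, an immunoglobulin-superfamily protein of T and NK cells, had log2 signals of 9.53, 7.71, 8.37, 7.98 and 7.89 in the total tumours, against 8.29, 6.98, 6.15, 7.91 and 7.61 in the biopsies. The groups overlapped. Within tumours Cd7 was higher in 5 of 5 pairs, the sole member to be so. That is 3.57% of members, near the 3.55% of all genes. No member was lower in 5 of 5 pairs, against 2.9% of all genes, and for 0 of 28 were the groups free of overlap, against 0.584%. The mean Cd7 signal was 8.30 ± 0.73 in the total tumours and 7.39 ± 0.84 in the biopsies (SD, n = 5 each), a difference of 0.91 (SE 0.307) with an adjusted p of 0.654 in limma. By pair the change was 1.24, 0.73, 2.22, 0.06 and 0.28, so in 50I1 the Cd7 signal hardly differed where Cd3e was lower by 1.80. It was 0.58 without 37I1.

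Cd2, an adhesion receptor, and Cd5, an inhibitory receptor of T cells, went with the CD3 chains, at 1.92 and 1.73 in 31D3 and at -1.83 and -2.19 in 50I1. On average Cd2 differed by 0.14 (SE 0.556) and Cd5 by -0.10 (SE 0.642). Cd6, a relative of Cd5, varied less and differed by 0.13 (SE 0.252). Cd96, a receptor of T and NK cells for nectin-like ligands, was under 5.15 in 3 total tumours and 2 biopsies and differed by 0.16 (SE 0.440). Cd28, which gives the main costimulatory signal, was under 5.15 on 9 of 10 arrays, so its difference of -0.13 (SE 0.225) says little. Icos, an inducible costimulator, had log2 signals of 8.92, 6.89, 7.02, 6.18 and 5.81 in the total tumours, against 7.63, 7.52, 5.27, 8.43 and 7.33 in the biopsies, a difference of -0.27 (SE 0.606). In 50I1 and 52I4 its changes of -2.25 and -1.52 were the most negative of all members in either pair. Ctla4, which restrains costimulation and is abundant on regulatory T cells, stayed between 4.99 and 6.14 in the total tumours and between 4.80 and 5.45 in the biopsies, and differed by 0.06 (SE 0.183).

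**Figure D2:**
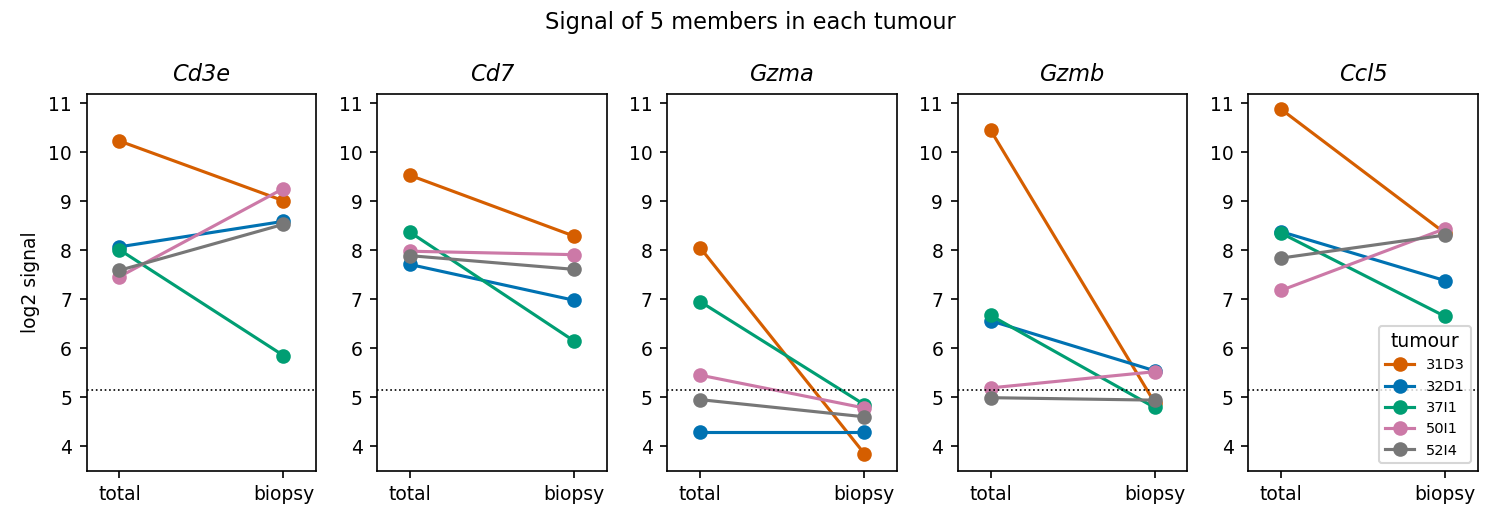
Log2 signals (vertical axis) of Cd3e, Cd7, Gzma, Gzmb and Ccl5 in the total tumour (left) and the biopsy (right), with a line for each of 5 tumours and a dotted line at 5.15, the level taken as near background. Cd7 is higher in the total tumour in 5 of 5 pairs, and Gzmb is at 10.45 in total tumour 31D3 against 4.99 to 6.67 in the other total tumours.

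The member granzymes were low in the biopsies, with Gzma under 5.15 in 5, Gzmk in 4 and Gzmb in 3 of 5 biopsies, and each was highest in total tumour 31D3. Gzmb, the granzyme that cleaves caspases, had log2 signals of 10.45, 6.56, 6.67, 5.19 and 4.99 in the total tumours, against 4.89, 5.54, 4.79, 5.52 and 4.94 in the biopsies. In 31D3 the signal of this probe set was at least 39.4-fold higher in the total tumour than in the biopsy. This lower bound was taken against 5.15, since the biopsy lay under that level. The further Gzmb probe set read 8.68 against 3.67 there, which gives a smaller bound by the same rule. The mean difference of Gzmb was 1.64 (SE 0.818), with an adjusted p of 0.750 in limma, and the total tumour was higher in 4 of 5 pairs. Without 31D3 the difference was 0.65. Rat granzyme genes include near-identical copies, so the gene behind this probe set is uncertain. A probe set shared by Gzmb and a second locus was left out.

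Gzma, a tryptase-like granzyme, had log2 signals of 8.05, 4.28, 6.95, 5.45 and 4.95 in the total tumours, against 3.85, 4.28, 4.85, 4.78 and 4.60 in the biopsies. Every biopsy was under 5.15, and 31D3 and 37I1 were the highest total tumours, with 31D3 at least 7.48-fold higher than its biopsy by the same bound. The mean signal was 5.94 ± 1.54 in the total tumours and 4.47 ± 0.41 in the biopsies (SD, n = 5 each). The difference of 1.47 (SE 0.602) had an adjusted p of 0.715 in limma and was 0.78 without 31D3, and 4 of 5 total tumours were above their biopsy. Gzmk, a further granzyme, reached 6.80 in total tumour 31D3, against 5.23 in the biopsy of that tumour. It lay between 4.36 and 4.89 in the other total tumours, and between 4.52 and 4.88 in the other biopsies.

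Prf1, which encodes perforin, had log2 signals of 7.73, 5.33, 5.02, 4.35 and 4.40 in the total tumours, against 5.31, 4.86, 3.77, 5.86 and 5.03 in the biopsies. Nkg7, a granule membrane protein, had log2 signals of 9.14, 6.81, 6.39, 5.22 and 5.50 in the total tumours, against 6.70, 6.56, 4.89, 6.74 and 6.45 in the biopsies. Both were lower in the total tumours of 50I1 and 52I4, with Prf1 at -1.51 and -0.63 and Nkg7 at -1.52 and -0.96, while Gzma was at 0.68 and 0.35 there. Klrd1, which encodes the CD94 chain of NK receptors, had differences of 2.21 in 31D3, 1.59 in 37I1 and -0.82 in 50I1. The average differences were 0.40 (SE 0.539) for Prf1, 0.34 (SE 0.578) for Nkg7, 0.51 (SE 0.474) for Klrd1 and 0.35 (SE 0.269) for Gzmk. Without 31D3 they were -0.10 for Prf1, -0.18 for Nkg7, 0.08 for Klrd1 and 0.04 for Gzmk. On average all 6 cytotoxic genes were higher in the total tumours, against 57% of all genes. Of the 6, 1 (Gzma) was higher at an unadjusted p under 0.05 in limma, against 2.6% of all genes. The median difference of the 6 was 0.45, against 0.03 over all genes.

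The genes of T cell identity and of cytotoxicity were then set side by side, as changes within a tumour. The cytotoxic mean took Gzma, Gzmb, Gzmk, Prf1, Nkg7 and Klrd1, and the T identity mean took Cd3d, Cd3e, Cd3g, Cd4, Cd5, Cd6, Cd8b, Cd28 and Icos. In 31D3 the cytotoxic mean was higher by 3.07 and the T identity mean by 1.17. In 32D1 the changes were 0.38 and -0.39, and in 37I1 they were 1.44 and 1.51. In 50I1 they were -0.65 and -1.42, and in 52I4 -0.33 and -0.92. The cytotoxic change was therefore above the T identity change in 4 pairs, by 1.90, 0.77, 0.77 and 0.60, and differed from it by -0.06 in 37I1. That near equality rests on the list of 9 genes. With Cd3d, Cd3e and Cd3g alone the T cell change in 37I1 was 2.42, above the cytotoxic 1.44. In the other 4 pairs the cytotoxic change was above that of these 3 genes.

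Averaged over pairs, the cytotoxic mean differed by 0.78 and the T identity mean by -0.01, with SDs over pairs of 1.51 and 1.29. Without 31D3 the cytotoxic difference was 0.21, and with each tumour left out the T identity difference lay between -0.39 and 0.34. The gap between them was 0.80, and 0.52 without 31D3, and 0.55 when T identity was narrowed to Cd3d, Cd3e and Cd3g and Ccl5 and Il2rb were added to the cytotoxic genes. Gzma, Gzmb, Klrd1, Ccl5, Cd7 and Cd8a each had a difference above that of the T identity mean in 5 of 5 pairs, 6 of 28 members against 0.197% of all genes. For Cd8a this depends on the probe set, as it was above by 0.04 in 32D1. A further Cd8a probe set read 5.31 against 5.98 in the biopsy of 32D1, and 4.92 against 6.22 in 52I4. Both of these changes were below that of the T identity mean. In 32D1, 50I1 and 52I4 the T identity mean was below 0, so a gene without any difference also lies above it there. In 31D3 and 37I1 it was at 1.17 and 1.51, where the median change over all genes was 0.03 and -0.03. Few genes outside the module could lie above it there, while most members lay near it. The share over all genes is thus low by construction and is no measure for the members. In the biopsies the cytotoxic mean lay between 4.45 (37I1) and 5.47 (50I1), close to the level where lower signals are no longer read in full. In biopsy 37I1 each of the cytotoxic genes was under 5.15. The part of this in the gap of any pair, 37I1, 50I1 and 52I4 included, was not tested.

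**Figure D3:**
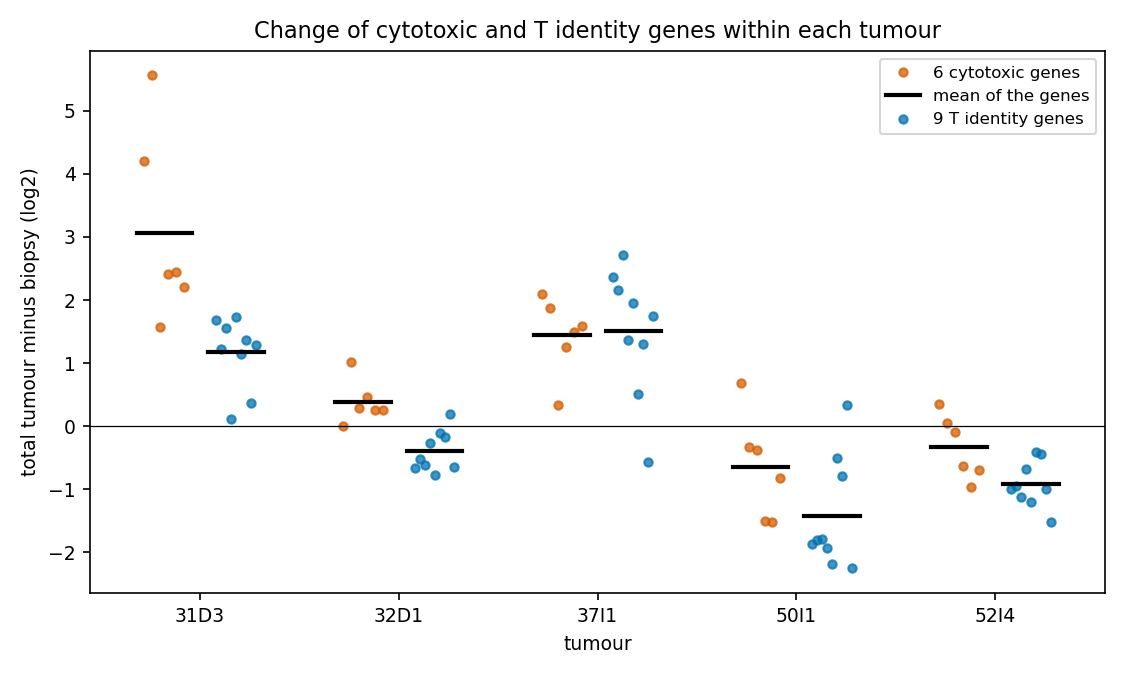
Total tumour minus biopsy on the log2 scale (vertical axis) for the 6 cytotoxic genes (left points) and the 9 T identity genes (right points) of each tumour, with bars at their means. The cytotoxic mean is above the T identity mean in 31D3, 32D1, 50I1 and 52I4, and the means are 1.44 and 1.51 in 37I1.

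To ask which members differed between total tumours and biopsies beyond what the T cell signal of each array carried, the mean of Cd3d, Cd3e and Cd3g was added as a covariate to the paired limma fit, a step chosen after the values were seen. The differences of Cd7, Gzma and Gzmb were close to those without it, and their standard errors were smaller. The Cd3 mean itself differed by 0.10 between the groups, so this covariate had little room to move a difference. Cd7 differed by 0.86 (SE 0.110), with an unadjusted p of 2.50e-04 and an adjusted p of 0.425 in limma, and by 0.75 to 0.96 with a tumour left out. Gzma differed by 1.40 (SE 0.439) and Gzmb by 1.55 (SE 0.616), with ranges of 0.89 to 1.90 and 0.78 to 2.49. On the lower side were Icos, at -0.37 (SE 0.116), and Il2rb, at -0.36 (SE 0.124). These 5 had an unadjusted p under 0.05 in limma. The 3 higher were 10.7% of members, against 3.87% of all genes, and the 2 lower were 7.14%, against 3.3%. The covariate is made of 3 members and varies with many of the others, which lowers their errors, so the shares are not alike. After adjustment 0 passed, against 0% of all probe sets. With a tumour left out, Cd7 stayed at an unadjusted p under 0.05 in 5 of 5 fits, Gzma in 4, Gzmb and Icos in 2 and Il2rb in 1.

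Printed here are the promoters of the member granzyme genes and of Prf1, which encode the proteins of the killing granules, and of Cd3e, from the receptor complex, for comparison. They run from 250 bases before to 50 after the start of the gene, from RefSeq on GRCr8, in lower case with capitals where a motif was found on either strand. The motifs searched were the RUNX core TGTGGT, the ETS site AGGAAGT, the AP-1 site TGACTCA and the CRE TGACGTCA, and 20 of 28 members had a promoter in the table.
Gzma, GRCr8 chr2:46485647-46485946, minus strand: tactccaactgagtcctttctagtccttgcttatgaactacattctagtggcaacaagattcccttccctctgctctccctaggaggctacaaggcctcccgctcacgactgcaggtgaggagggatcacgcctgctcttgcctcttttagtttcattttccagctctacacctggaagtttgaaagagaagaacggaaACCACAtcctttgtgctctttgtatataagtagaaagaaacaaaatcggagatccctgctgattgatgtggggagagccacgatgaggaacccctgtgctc
Gzmb, GRCr8 chr15:34462420-34462719, minus strand: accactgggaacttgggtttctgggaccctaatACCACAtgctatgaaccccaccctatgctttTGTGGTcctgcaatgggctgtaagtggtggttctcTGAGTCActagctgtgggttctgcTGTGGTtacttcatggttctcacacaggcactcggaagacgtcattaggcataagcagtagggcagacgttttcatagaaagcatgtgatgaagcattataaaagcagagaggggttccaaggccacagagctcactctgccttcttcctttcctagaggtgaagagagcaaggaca
Gzmk, GRCr8 chr2:46581966-46582265, minus strand: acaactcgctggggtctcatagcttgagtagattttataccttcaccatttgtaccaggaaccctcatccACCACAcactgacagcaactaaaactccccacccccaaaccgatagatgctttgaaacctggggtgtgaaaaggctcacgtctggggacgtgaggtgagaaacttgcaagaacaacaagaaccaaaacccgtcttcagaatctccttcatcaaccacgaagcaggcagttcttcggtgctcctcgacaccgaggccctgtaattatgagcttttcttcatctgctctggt
Prf1, GRCr8 chr20:29788790-29789089, plus strand: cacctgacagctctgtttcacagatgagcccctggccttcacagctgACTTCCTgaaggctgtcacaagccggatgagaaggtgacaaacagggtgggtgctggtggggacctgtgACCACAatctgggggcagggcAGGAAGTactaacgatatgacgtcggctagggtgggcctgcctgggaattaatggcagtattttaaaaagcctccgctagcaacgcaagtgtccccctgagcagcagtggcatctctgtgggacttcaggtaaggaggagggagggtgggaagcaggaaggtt
Cd3e, GRCr8 chr8:54211721-54212020, minus strand: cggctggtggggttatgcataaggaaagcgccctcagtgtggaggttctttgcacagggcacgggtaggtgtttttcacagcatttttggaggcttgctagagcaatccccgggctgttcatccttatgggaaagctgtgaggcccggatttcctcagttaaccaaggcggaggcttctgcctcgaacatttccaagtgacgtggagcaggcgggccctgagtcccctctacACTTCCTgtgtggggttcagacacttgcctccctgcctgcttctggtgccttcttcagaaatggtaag
In these windows the capitals of Gzma and of Gzmk mark 1 RUNX core each, and those of Gzmb 3 RUNX cores and 1 AP-1 site. Those of Prf1 mark 2 ETS sites and 1 RUNX core, and those of Cd3e mark 1 ETS site. The RUNX core was found in 9 of 20 member promoters (Cd2, Cd28, Cd96, Gzma, Gzmb, Gzmk, Lck, Nkg7 and Prf1) and in 17.3% of all 33469 promoters. The ETS site was found in 7 of 20 (Cd247, Cd3e, Cd5, Cxcr3, Icos, Lck and Prf1) and in 8.41% of all promoters. The AP-1 site was in Gzmb and in 4.63% of all promoters, and the CRE in Zap70 and in 1.83%. A match describes the letters and does not show that a factor binds.

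Ccl5, a chemokine that T and NK cells secrete and that attracts more of them, had log2 signals of 10.88, 8.38, 8.35, 7.18 and 7.84 in the total tumours, against 8.35, 7.38, 6.65, 8.44 and 8.31 in the biopsies. It was the highest in total tumour 31D3, with a change of 2.53, and its mean difference was 0.70 (SE 0.542), and 0.24 without 31D3. Cxcr3, the receptor for interferon-induced chemokines on activated T cells, differed by 0.78 in 31D3 and -0.17 (SE 0.461) on average. The 3 genes shared with other lymphocytes all had lower means in the total tumours. Il2rb, a chain of the interleukin 2 and 15 receptors, differed by -0.27 (SE 0.581), Il2rg, the common gamma chain, by -0.12 (SE 0.519), and Ptprcap, a partner of the phosphatase CD45, by -0.16 (SE 0.438). In 32D1 Il2rb was lower by 1.24, more than any other member of that pair.

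Of 17 ligands and partners of these molecules, 13 were measured. On average 11 were higher and 2 lower, where 57% of all genes were higher. At an unadjusted p under 0.05 in limma there were 0, against 2.6% of all genes higher and 2.58% lower. The median difference of the 13 was 0.13, against 0.03 over all genes. Cxcl9, a ligand of Cxcr3, had log2 signals of 10.92, 8.75, 8.12, 9.19 and 7.91 in the total tumours, against 8.18, 9.17, 6.89, 8.87 and 8.33 in the biopsies. It differed by 2.73 in 31D3 and by 0.69 (SE 0.466) on average. Cxcl10 and Cxcl11, the other Cxcr3 ligands and named after their values were seen, differed by 2.25 and 2.31 in 31D3, and by 0.12 (SE 0.510) and 0.03 (SE 0.614) on average. Icoslg, the ligand of Icos, differed by 0.40 (SE 0.335), with 2.04 in 37I1, and by -0.01 without that tumour. Alcam, a ligand of Cd6, differed by -0.15 (SE 0.148), and Il2, the T cell growth factor, was near background on every array.

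Of 60 other T and NK cell genes, 34 were measured, 14 with a higher and 20 with a lower mean in the total tumours. Among all genes 57% were higher. The median difference of the 34 was -0.07, against 0.03 over all genes. Of the 34, 1 was higher at an unadjusted p under 0.05 in limma, against 2.6% of all genes. This was the NK receptor gene Klrc1, at 0.29 (SE 0.111), with all of its signals under 5.15. By tumour 30 of 34 were higher in 31D3 and 28 in 37I1, and 3 were higher in 50I1. The median change over all genes was 0.03 in 31D3, -0.03 in 37I1 and 0.03 in 50I1. Gzmm, a granzyme of NK cells, was at 8.56 in total tumour 31D3, against 6.70 in its biopsy, with 6.21 to 6.81 in the other total tumours. Eomes, a transcription factor of cytotoxic cells, and Xcl1, a chemokine of activated CD8 and NK cells, were named after their values were seen. Eomes was at 7.13 in total tumour 31D3, against 4.51 in its biopsy, and under 5.15 on the other arrays. Xcl1 was at 8.02 in total tumour 31D3, against 5.57 in its biopsy. Ifng, a cytokine of these cells also named after its values were seen, was near background throughout, at 3.89 in total tumour 31D3 and 3.14 in its biopsy. Klrk1 was at 8.09 in total tumour 31D3, against 7.82 in its biopsy, and differed by -0.23 (SE 0.161) on average.

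The leukocyte and macrophage lists had the signs of the T and NK cell genes in 5 of 5 tumours, and other blood cell lists did not. The mean of 8 genes of all leukocytes differed by 0.88 in 31D3, -0.33 in 32D1, 1.48 in 37I1, -1.55 in 50I1 and -0.56 in 52I4, with 0 of its genes under 5.15. Its level lay between 7.67 and 9.90 in the total tumours and between 7.11 and 9.22 in the biopsies. Ptprc, the CD45 gene of all leukocytes and named after its values were seen, was at 10.30 in total tumour 31D3 against 9.70 in its biopsy, a difference of 0.61, while that of Cd3e was 1.22. The 12 macrophage genes, of which 0 were under 5.15, differed by 0.81 in 31D3, -0.28 in 32D1, 1.76 in 37I1, -1.78 in 50I1 and -0.47 in 52I4, between 8.33 and 10.31 in the total tumours and between 7.89 and 10.11 in the biopsies. In 31D3 the T and NK mean, at 1.67, differed by more than the leukocyte and macrophage means, and in 37I1 and 50I1, at 1.50 and -1.19, by a like or smaller amount.

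The B and plasma cell list had 5 of its 7 measured genes under 5.15, and its mean differed by 1.41 in 31D3, 0.19 in 32D1, 0.98 in 37I1, -0.74 in 50I1 and -0.29 in 52I4. It lay between 4.30 and 6.01 in the total tumours and between 4.17 and 5.14 in the biopsies. The neutrophil mean (5 genes, 3 of them under 5.15) was higher by 1.28 in 32D1 and 0.81 in 52I4, where the T and NK mean was at -0.18 and -0.70. It lay between 5.09 and 6.91 in the total tumours and between 4.28 and 5.63 in the biopsies. The erythroid mean of 4 genes was at 1.61 in 32D1 and 0.50 in 50I1, between 6.67 and 8.70 in the total tumours and between 6.45 and 7.64 in the biopsies. The dendritic mean of 4 genes, 1 of them under 5.15, was at -0.03 in 31D3 and 0.77 in 37I1, between 5.92 and 7.59 in the total tumours and between 5.70 and 7.62 in the biopsies. Fibroblast genes had 7 of 7 measured and differed by 0.85 in 31D3, 2.61 in 37I1, -1.28 in 50I1 and 1.53 in 52I4, between 10.25 and 11.59 in the total tumours and between 7.81 and 11.53 in the biopsies. The mean of the epithelial genes, 8 of 8 measured, differed by -0.10 to 0.28 over the pairs, while single genes differed by more, with Cldn3, a tight junction gene picked after its values were seen, at -1.06 in 31D3. The epithelial mean lay between 12.12 and 12.48 in the total tumours and between 12.00 and 12.30 in the biopsies. Biopsy 37I1 was low in lymphocyte, leukocyte, macrophage and fibroblast genes alike, while in 52I4 the fibroblast mean was higher and the T and NK mean lower in the total tumour. The skeletal muscle mean of 6 genes, 4 of them under 5.15, was 6.15 in biopsy 37I1 and 6.36 in biopsy 50I1. In the other biopsies it lay between 4.74 and 4.90. Its single genes were looked at after their values were seen. In biopsy 37I1 Acta1 was at 11.93, while Ckm, Myh4, Tnnc2 and Myl1 were under 5.15. In biopsy 50I1 Acta1 was at 8.13, Myl1 at 6.74 and Tnnc2 at 5.19. Myh1 was high on all arrays, with a mean of 10.46. Mast cell genes went with the group instead, with 7 of 7 lower on average in the total tumours and a median difference of -0.85. In limma 7 were lower at an unadjusted p under 0.05, against 2.58% of all genes, and 0 passed after adjustment. By pair, 3 of the 7 were higher in 32D1 and 1 in 31D3. The part of these other cells in the T and NK cell differences was not tested.

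**Figure D4:**
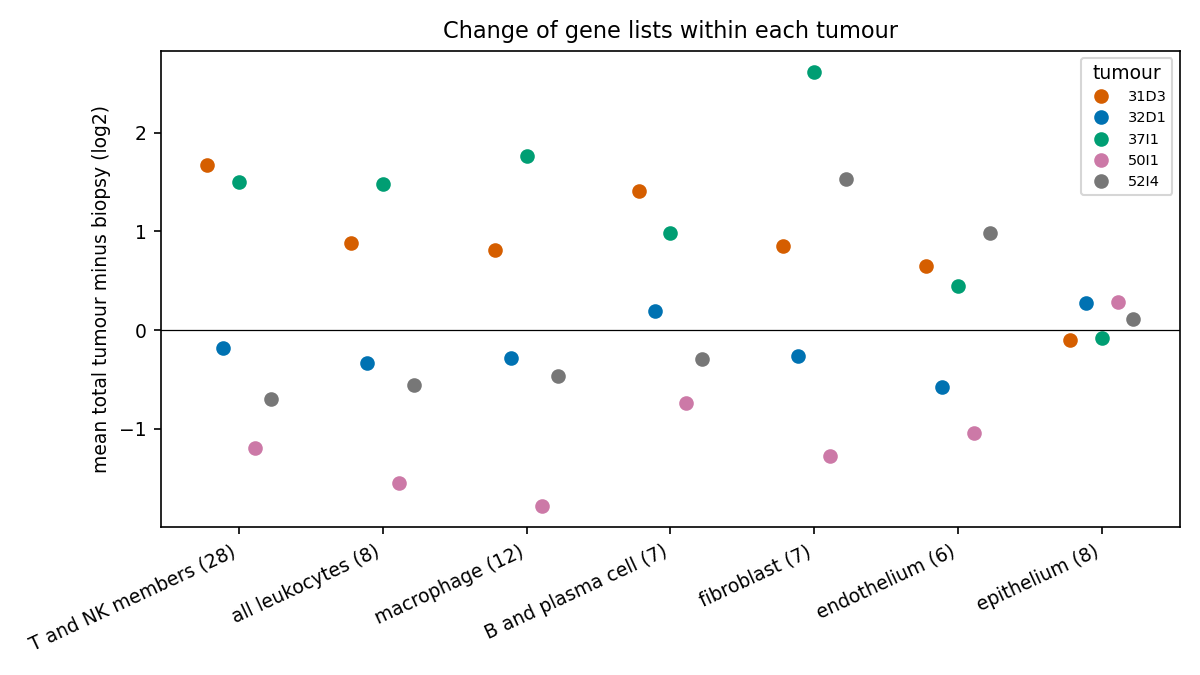
Mean total tumour minus biopsy on the log2 scale (vertical axis) of the 28 T and NK cell genes and of 6 marker lists, with a point for each of 5 tumours and the number of genes in brackets. The leukocyte and macrophage points keep the signs of the T and NK cell points in every tumour, and the epithelial points stay between -0.10 and 0.28.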

How the data were processed

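RNA of 5 total tumours and 5 biopsies was hybridised to Affymetrix Rat Genome 230 2.0 arrays. The authors deposited log2 signals of probe sets, an array to a column, which they made with RMA, per the submitters' processing notes. RMA forces arrays onto 1 distribution, so a shift shared by most genes is removed. The sources used here do not name its version or the chip definition. After removal of 57 controls from 31099 probe sets, the platform annotation paired 20826 with 1 gene and 436 with several, and listed none for 9780. Symbols were updated by gene identifier.

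Groups came from the labels, which name the same 5 tumours in both, so pairs come from the same tumour. Deviations from group means correlated above 0.1 in 4 of 5 pairs, from -0.18 to 0.32. Total tumours were compared with biopsies over all 31042 probe sets, without a filter, with limma 3.58.1 (lmFit, eBayes; R 4.3.3) and a block for the tumour, and p-values were adjusted by Benjamini-Hochberg. Steps were tested on simulated data. Means over members carry no p. Figures used matplotlib 3.10.9.

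The rule for named genes took all members, the 4 genes with the smallest p of the 2 lists of other T and NK genes and of ligands, the mean levels of marker lists, and defining markers near background (Ncr1). Genes outside the rule are named as such in the text. Members, lists and alternatives were chosen with earlier results of these data known. Alternatives were a filter on dim probe sets, no block, the study's paired test, trend, array weights, 2 normalizations, other summaries, other list members, leaving out each tumour and the Cd3 covariate, which was added after seeing the data. Correlations between arrays lay between 0.952 and 0.989, so none was a copy. The number of arrays limits the precision.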

Additional observations from a re-analysis of the deposited data

Results flagged for a closer look

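Each member and each of the 3 means was looked at for a sample far from the other 4 of its group, where the gap to the nearest sample takes up most of the group's range (Dixon's test). Of 62 groups looked at, 26 were so marked, where chance alone marks about 1 in 20. The share marked over all genes was not counted, so it is not known whether this number is particular to the members. The 62 include means of the same members, and the members vary together, so these marks are not independent. All 26 fell on the same 2 arrays. Total tumour 31D3 was far above the other total tumours, in log2 signal, for Cd3d (9.59), Cd3e (10.23), Cd3g (10.49), Lck (10.33), Zap70 (9.02), Cd5 (8.80), Cd6 (7.95), Ctla4 (6.14), Gzmk (6.80) and Ptprcap (9.21), and for the means of all members (8.60) and of T identity (8.47). Biopsy 37I1 was far below the other biopsies for Cd3d (4.96), Cd3e (5.85), Cd3g (5.31), Cd247 (4.76), Lck (7.07), Zap70 (5.94), Cd2 (5.14), Cd5 (4.19), Nkg7 (4.89), Cxcr3 (4.92), Il2rg (6.48) and Ptprcap (6.32), and for the means of all members (5.17) and of T identity (5.16). The granzymes Gzma and Gzmb, though highest in total tumour 31D3, were not marked, since their other total tumours also spread.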

How the results depend on the processing

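The number of members past an adjusted p under 0.05 was 0 under all alternatives run. At an unadjusted p under 0.05 there were 2 members, and 1 with the dim probe sets left out, with no replicate block, with trend, with array weights, with quantile normalization and with a gene's probe sets averaged. The study's paired test gave 0 and the Cd3 covariate 5, and with a tumour left out the number lay between 0 and 2. The mean differences of all members, of T identity and of cytotoxic genes moved by less than the spread between pairs under every alternative run. So did the gap of the last 2. Leaving out 1 of 5 pairs cannot move a mean by as much as that spread, so for those alternatives this could not fail. The mean difference of all members went from 0.22 to -0.14 without 31D3 and to -0.10 without 37I1. That of the cytotoxic genes went from 0.78 to 0.21 without 31D3. Of 249 differences of members under alternatives other than leaving out a tumour, 238 kept their sign. Array weights, which count the arrays that stand apart for less, turned Cd3d (-0.28), Cd3e (-0.32), Cd3g (-0.26), Lck (-0.15), Zap70 (-0.20), Cd2 (-0.17), Cd6 (-0.01), Cd96 (-0.10) and Ctla4 (-0.01), and the Cd3 covariate turned Cd3e (-0.06) and Zap70 (-5.82e-04). With a tumour left out, 22 members turned sign and 6 did not, 13 of the 22 without 31D3 and 10 without 37I1. How many of all genes turned in this way was not counted, so these numbers cannot be called particular to the members. The ranges of the 22 were Cd3d -0.46 to 0.60, Cd3e -0.51 to 0.48, Cd3g -0.49 to 0.64, Cd247 -0.56 to 0.38, Lck -0.24 to 0.43, Zap70 -0.27 to 0.35, Cd4 -0.69 to 0.14, Cd8a -0.06 to 0.57, Cd8b -0.02 to 0.51, Cd2 -0.30 to 0.64, Cd5 -0.61 to 0.43, Cd6 -0.13 to 0.28, Cd28 -0.25 to 0.09, Cd96 -0.16 to 0.56, Ctla4 -0.10 to 0.19, Icos -0.78 to 0.22, Prf1 -0.10 to 0.88, Nkg7 -0.18 to 0.81, Cxcr3 -0.62 to 0.13, Il2rb -0.76 to 0.15, Il2rg -0.60 to 0.30 and Ptprcap -0.51 to 0.20. The cause was not tested. For members near background, signal limits what can be read.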

Other observations

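Of the 28 members, 6 were read by more than 1 probe set, and the sign of the mean difference was the same for 8 of 8 further probe sets. The further probe set of Gzmb gave log2 signals of 8.68, 4.70, 4.37, 3.77 and 3.49 in the total tumours of 31D3, 32D1, 37I1, 50I1 and 52I4, against 3.67, 3.92, 3.23, 3.78 and 3.22 in the biopsies, a difference of 1.44 (SE 0.712). That of Cd3e gave 9.57, 7.39, 6.88, 6.58 and 6.73 in the total tumours, against 7.86, 7.83, 4.59, 8.25 and 7.55 in the biopsies. So the high Gzmb signal of total tumour 31D3 and the low Cd3e signal of biopsy 37I1 were each seen with both probe sets. For Cd8a, the 2 brighter probe sets gave 8.35 and 8.16 in total tumour 31D3, against 6.69 and 6.39 in its biopsy.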
